A study of Mus musculus with 46 samples.

Results

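The liver pieces stored in the cold were compared late against early: the arrays of 12, 24 and 48 h at 4 °C against those of 0, 1 and 3 h. These are 6 of the 46 arrays of a mouse study of miRNAs in heart, liver and brain kept at 4 °C or at room temperature (RT) after death, chosen by the tissue, temperature and time in their labels. The comparison asks which miRNA signals change when liver lies in the cold for 12 h or longer. The 6 h and 96 h pieces at 4 °C were not analysed here, and the methods give 14 h for the piece labelled 12 h. All pieces came from male C57BL6 mice of an Il1a knock-out strain, so that the early pieces carry this deletion as well. Per the methods, each liver was cut into 8 parts, each part was moved into RNAlater after its storage time, and 1 animal per temperature was put on arrays. Total RNA was isolated with the miRNeasy kit without its DNase step, labelled with cyanine 3 and hybridised to 1 Agilent array per piece. Each storage time thus has a single array, the 3 arrays of a window are different times of 1 liver, and the p-values below measure only the spread between such pieces.

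MiRNAs are cut from hairpin precursors by DROSHA and DICER, and the guide strand of about 22 bases is held by an Argonaute protein, where bases 2 to 8, the seed, pair with target mRNAs. The other strand of the hairpin, the passenger, is usually lost. Hepatocytes are known for very high miR-122, and for miR-192, miR-194 and miR-148a. The RNA integrity number (RIN) is read from the ribosomal RNA and falls as long RNAs break. The labels give RIN values of 9.1, 7.4 and 9.0 for the pieces of 0, 1 and 3 h, and of 8.2, 7.8 and 3.4 for those of 12, 24 and 48 h. RIN did not fall in the order of time, and the 48 h piece was the single one under 7. The paper's text gives this piece a higher RIN than its label, also under 7, and reports that it clustered with non-degraded liver. The values of the labels were used here.

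The sequences below belong to the miRNAs with the largest late increases that RefSeq's table holds (GRCm38.p6), and to miRNAs they are set against. They are written 5′ to 3′ with the seed in capitals. The first 8 are among the 10 largest increases, miR-125a-3p is a passenger strand whose guide is described later, miR-3473a and miR-3473b are members of a family described later, miR-130a-3p and miR-301a-3p share the seed of miR-721, and let-7f-5p and miR-192-5p are guides whose windows overlapped.
miR-721: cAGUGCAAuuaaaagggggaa
miR-760-3p: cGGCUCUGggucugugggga
miR-3547-5p: gUGGGAAGagggguggggcccggga
miR-3099-3p: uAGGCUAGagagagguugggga
miR-8093: uUGGGGAGcagagcaugagug
miR-7031-5p: cCUGAGAGgccugaaggguggga
miR-7216-5p: uGGAGAGCuggcagaggacccaga
miR-7222-3p: uCCAGGACagugggcaggagcag
miR-125a-3p: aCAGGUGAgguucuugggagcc
miR-3473a: uGGAGAGAuggcucagca
miR-3473b: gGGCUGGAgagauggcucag
miR-130a-3p: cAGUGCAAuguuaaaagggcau
miR-301a-3p: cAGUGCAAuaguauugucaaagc
let-7f-5p: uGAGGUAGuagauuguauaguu
miR-192-5p: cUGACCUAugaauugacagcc
In that build miR-721 lies at chr5:136375777-136375797 on the minus strand, miR-760-3p at chr3:122293615-122293634 (minus), miR-3547-5p at chr17:25245614-25245638 (minus) and miR-3099-3p at chr7:6803638-6803659 (plus). MiR-8093 is at chr2:32687706-32687726 (minus), miR-7031-5p at chr5:121819246-121819268 (minus), miR-7216-5p at chr17:27328385-27328408 (plus) and miR-7222-3p at chr2:92594654-92594676 (plus). Runs of G are easy to see in the second part of several of the first 8, and no 2 of these 8 share a seed. MiR-1901 and miR-1897-5p complete the 10.

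All 6 arrays lay on 1 slide, with 0, 1 and 3 h in its first row and 12, 24 and 48 h in its second, so that slide row and window cannot be told apart. The number of miRNAs the scanner software flagged as detected, of 1881 on the array, was 268, 330 and 381 at 0, 1 and 3 h and 352, 365 and 415 at 12, 24 and 48 h. The windows overlapped, with 3 h above 12 and 24 h, and the late mean was higher by 51 (exact two-sided permutation test, p = 0.3; 3 against 3 arrays cannot go below 0.1). The 0 h array stood apart. On the deposited log2 scale its median over the 216 miRNAs detected on all 6 arrays was 4.56, against 5.92 and 6.04 at 1 and 3 h and 6.03, 5.80 and 6.44 at 12, 24 and 48 h. Its negative control spots also varied more (SD 5.38 signal units, against 2.12 to 2.44 on the others), and 27 miRNAs were detected there and on no other of the 6 arrays. The deposited values therefore place most miRNAs lower at 0 h, and the median late minus early difference of all 815 analysed miRNAs was 0.38 on the log2 scale with the 0 h array and 0.06 without it. Results are given with and without the 0 h array for this reason, and with and without the 48 h array for its RIN.

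**Figure D1:**
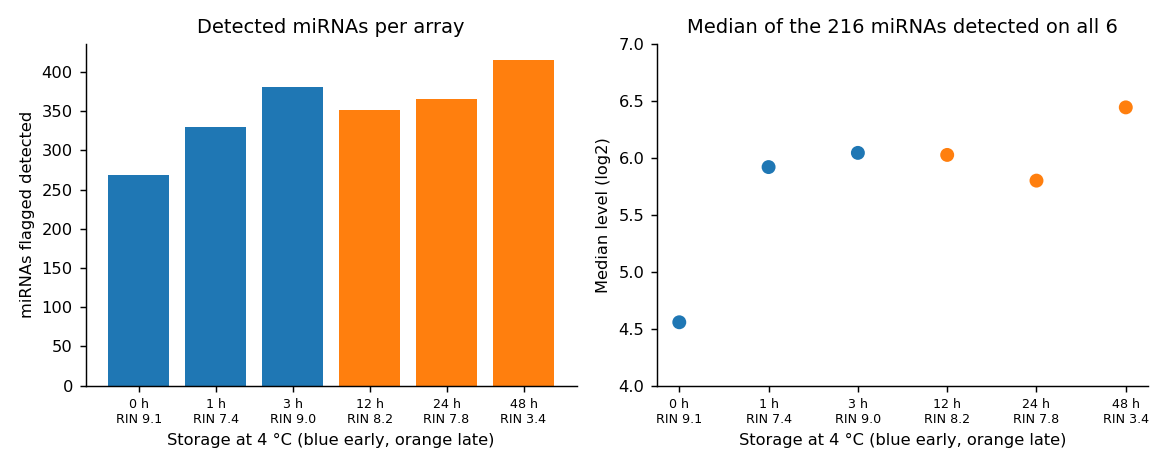
Left, number of miRNAs flagged detected on each liver array at 4 °C; right, median deposited log2 level of the 216 miRNAs detected on all 6 arrays. Bars and points are single arrays, blue for early and orange for late storage times, with the RIN under each time; the 0 h array is lowest in both panels, at 268 miRNAs and 4.56.

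The tissue markers were those of liver. MiR-122-5p was detected on all 6 arrays, and the summed signal of the 11 liver-enriched strands ran from 7508 to 27150 units on the early and from 12920 to 38040 on the late arrays. Of 7 heart and skeletal muscle markers, among them miR-1a-3p, miR-133a-3p and miR-208a-3p, 0 were detected on any of the 6 arrays. Of 7 brain markers, miR-124-3p, miR-9-5p, miR-9-3p and miR-138-5p were detected on none, while miR-219a-5p and miR-338-3p were detected on 5 arrays each. MiR-128-3p was detected on 1 early and 1 late array. The blood cell markers summed to 532.5 to 1758 units early and 804.4 to 2595 units late, and those of vessels and stroma to 339.6 to 1181 and 608.9 to 1623 units. Both were lowest at 0 h and highest at 48 h, as were the liver strands, and the part of these cells in the results was not tested. In whole tissue, fewer cells of a type and less of its RNA per cell cannot be told apart.

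The late pieces showed higher signal for a set of miRNAs, and fewer were lower. Of the 815 analysed miRNAs, 100 (12.3%) were over 2-fold higher in the late window with all 3 late values above all 3 early values, and 4 (0.491%) were as much lower in the same way. These counts depended on the processing and on how many miRNAs were tested. Without scaling they were 26 higher and 0 lower of 453 tested, and with 75th percentile scaling 29 and 0 of 452. They were 5 and 0 of 815 with normexp background correction and quantile normalization, and 120 and 81 when all 1881 miRNAs were kept. Many of the 100 were never flagged detected. Detection on all 3 late arrays left 45 miRNAs (5.52% of those analysed), and these 45 are the late-high set described below. It makes up 13.7% of the 329 miRNAs detected on all 3 late arrays. Of the 217 miRNAs detected on all 3 early arrays, 0 were lower in every late piece, also below the 2-fold limit. To be counted, a miRNA had to fall below its value on the low 0 h array as well. From 0 to 1 h, 164 of the 193 miRNAs detected on all 6 arrays outside the set went up and 29 down. The count of 0 therefore cannot decide whether detected miRNAs fell, and it is not given without the 0 h array. Without the 48 h array 107 (13.1%) were separated and over 2-fold higher and 16 (1.96%) lower. Of the 45, 38 stayed over 2-fold higher without the 48 h array and 41 without the 0 h array, while their separation is fixed by the choice of the set. With a call threshold of 0.05 on the adjusted p, 2 of 815 miRNAs (0.245%) passed in limma, both higher, and neither was in the late-high set. At an unadjusted p under 0.05 there were 98 (12%), of which 94 were higher, and 39 of the 45 were among these 94. The 45 were chosen by separation and fold on the same values, so that the 39 partly restate that choice. Without the 3 h array, the highest of the early window for most of the set, 14 miRNAs passed the adjusted p and 158 were separated and over 2-fold higher.

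The largest increase of a detected miRNA was that of miR-721. Its deposited log2 level was 2.30, 2.78 and 7.42 at 0, 1 and 3 h and 9.16, 10.31 and 10.1 at 12, 24 and 48 h. It was not detected at 0 and 1 h, so that the windows were separated by a step that began within the early window. The late minus early difference was 5.69 ± 1.28 (SE, 3 against 3 arrays), with an adjusted p of 0.125. MiR-721 shares its seed with the miR-130 and miR-301 miRNAs, and those had overlapping windows. MiR-130a-3p measured 7.77, 9.80 and 9.47 at the early and 9.55, 8.89 and 9.94 at the late times, and its windows overlapped (difference 0.45, adjusted p = 0.879). For miR-301a-3p, not detected at 0 h, the difference was 0.07, and its windows overlapped too.

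MiR-760-3p and miR-3099-3p followed the same course. MiR-760-3p stood at 0.84, -0.13 and 4.47 in the early and at 6.14, 7.27 and 6.90 in the late pieces, a difference of 5.04 ± 1.12 on the log2 scale. MiR-3099-3p stood at 3.07, 0.64 and 4.78 in the early and at 6.39, 7.56 and 7.17 in the late pieces, a difference of 4.21 ± 0.99. Each was undetected at 0 and 1 h, first detected at 3 h, and highest at 24 h rather than at 48 h. The same order of 24 h over 48 h was seen for miR-721 and miR-7031-5p. MiR-7031-5p was already detected at 1 h, with 2.62, 3.58 and 5.75 early and 7.22, 8.27 and 8.22 late, a difference of 3.92 ± 0.81.

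In the others of the 10, the 48 h piece was the highest. MiR-1897-5p was the only one of the 10 detected on all 6 arrays, so that its difference rests on measured signal throughout. Its level was 4.30, 5.003 and 5.92 in the early and 7.69, 8.48 and 10.37 in the late pieces, and the scanner's total gene signal went from 17.3 units at 0 h to 1020 units at 48 h. The difference was 3.78 ± 0.77 on the log2 scale with an adjusted p of 0.125, and it was 3.02 without the 48 h array and 3.39 without the 0 h array. MiR-3547-5p reached 5.23, 6.60 and 7.45 in the late pieces from 1.65, 0.34 and 3.75 in the early ones, of which only 3 h was a detected value. MiR-7216-5p and miR-7222-3p, likewise detected on no early array but 3 h, differed by 3.48 ± 0.71 and 2.98 ± 0.60. Over the 10 miRNAs the adjusted p ran from 0.125 to 0.231, so that none passed among all 815. Where testing was restricted to miRNAs detected on at least 3 of the 6 arrays, 9 of 374 miRNAs passed. They are these 10 without miR-8093 (smallest adjusted p = 0.0304). That restriction lets a miRNA in through the window where it is high. With log2(hours + 1) as the predictor in place of the windows, 48 of all 815 passed, and 10 of the 10 were among them. These 10 were chosen as late-high on the same arrays, so that their passing partly restates that choice. The same 10 miRNAs were the largest increases without the 48 h array.

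**Figure D2:**
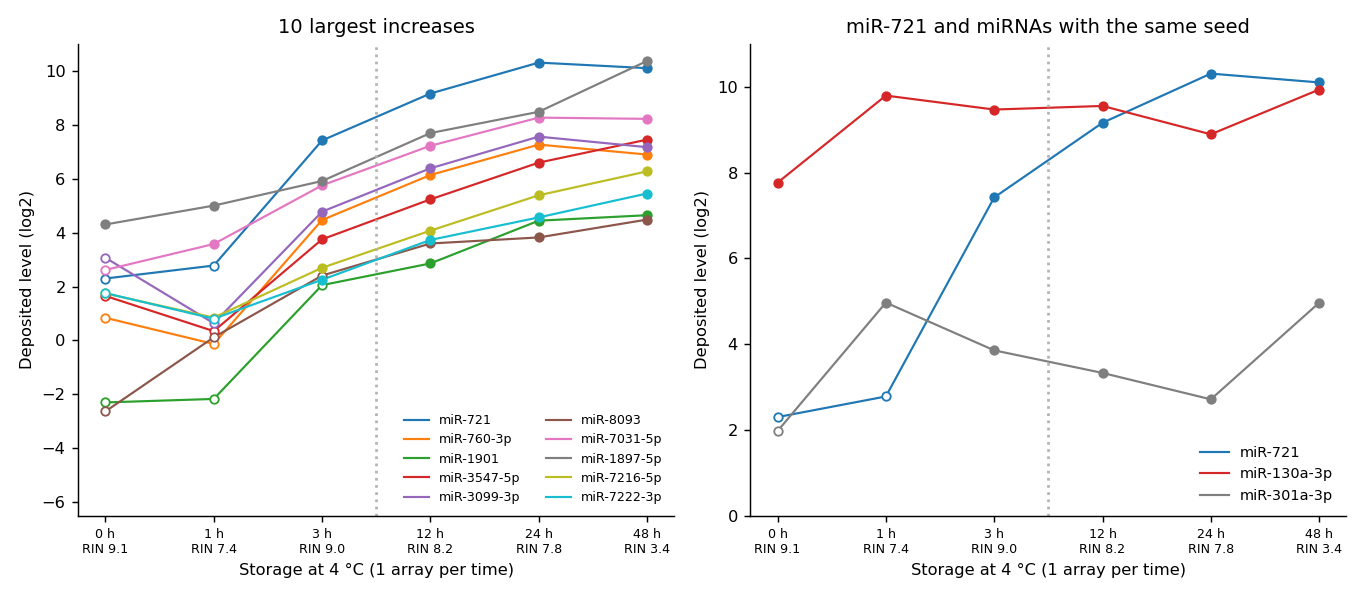
Deposited log2 level against storage time at 4 °C, 1 array per time with its RIN; filled points are detected and open points not detected, and the dotted line parts the early from the late window. Left, the 10 largest increases, which lie higher on every late array than on any early one; right, miR-721 beside miR-130a-3p and miR-301a-3p, whose windows overlap.

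Detection itself was gained by 5 miRNAs, flagged on 0 of 3 early and 3 of 3 late arrays, and lost in this way by none. Against the higher, on each early array, of its lowest detected value and the miRNA's own value, miR-1901 was at least 4.41-fold higher late, miR-8093 at least 4.02-fold, miR-7088-5p at least 3.92-fold, miR-134-5p at least 3.91-fold and miR-6352 at least 3.00-fold. In signal units, miR-1901 went from 3.68 at 12 h to 9.96 at 24 h and 18.3 at 48 h, and miR-134-5p, known from neurons, from 6.03 to 6.65 and 16.6. All 5 were thus dim even where they were detected, and highest at 48 h. The early window of miR-7088-5p reached 2.4928 at 3 h on the log2 scale against 2.4885 at 12 h, so that its values overlapped.

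The miRNAs past the adjusted p were of another kind, because their values lay under the detection limit. MiR-703 measured -3.96, -3.59 and -4.33 on the log2 scale in the early and 1.23, 1.17 and 3.64 in the late pieces (difference 5.98 ± 0.72, adjusted p = 0.0264) and was detected at 48 h alone. MiR-7035-5p measured -3.36, -4.20 and -4.05 early and -0.69, -0.44 and -0.39 late (difference 3.37 ± 0.42, adjusted p = 0.0264) and was detected on none of the 6 arrays. With undetected values raised to the detection limit, neither passed, and the difference of miR-7035-5p was -0.02. Without the 48 h array miR-703 alone passed, and without the 0 h array miR-7035-5p alone.

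The late-high set of 45 did not climb evenly. From 0 to 1 h its median step was -0.16 on the log2 scale, with 21 miRNAs higher and 24 lower, while the median step of all 815 was 0.35. From 1 to 3 h the median step was 1.45 and 43 of the 45 went up, whereas all 815 moved by a median of 0.13. The following median steps were 0.36 from 3 to 12 h, 0.44 from 12 to 24 h and 0.72 from 24 to 48 h, with 45, 43 and 40 of the 45 going up. Over all 815 these steps were 0.01, -0.02 and 0.51. Thus 43 of 45 members (95.6%) were higher at 3 h than at both 0 and 1 h, compared with 332 of 815 (40.7%), and 38 (84.4%) were higher at every step from 3 to 48 h, compared with 107 (13.1%). The choice of the set fixes the order of late over early, and with it the rise of all 45 from 3 to 12 h. The 84.4% against 13.1% thus partly restates that choice. The order within the early window is not fixed by it. At 3 h, where the levels were above those of 1 h, RIN was 9.0 against 7.4, and both arrays lay in the same slide row. These are single arrays, and the part of RIN or slide row in the levels was not tested. Among the 45, 23 were detected on all 3 early arrays, 7 on 2, 11 on 1 and 4 on 0. Their differences ran from 1.03 (miR-7045-5p) to 5.69 with a median of 1.76, which was 1.37 without the 48 h and 1.55 without the 0 h array. The first miRNA under the 2-fold limit was miR-7686-5p, with 0.96.

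Several members of the set were measured well on every array. MiR-709 had 6.83, 8.40 and 8.02 in the early and 8.61, 9.11 and 10.64 in the late pieces, a difference of 1.70. MiR-7047-5p had 6.99, 7.44 and 7.99 early and 8.30, 8.92 and 10.15 late, a difference of 1.65. MiR-690 had 6.21, 6.06 and 7.34 early and 7.45, 7.76 and 9.07 late, a difference of 1.55. In all of these the 48 h piece was the highest of the 6. MiR-6538, miR-1198-5p and miR-211-3p, detected on all 6 arrays as well, differed by 1.89, 1.76 and 1.33.

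By the number in the name, which broadly follows the order of entry into miRBase, 29 of the 45 (64.4%) are numbered at or above 3000, 5 between 1000 and 3000 and 11 lower. Of all 815 analysed miRNAs 308 (37.8%) are numbered at or above 3000, and of the 329 detected on all late arrays 115 (35%). Counted the other way, 65 of the 308 (21.1%) were separated and over 2-fold higher in the late window, detected or not, as were 13 of the 48 (27.1%) between 1000 and 3000 and 22 of the 459 (4.79%) below. The 3 lowest-numbered members of the set are miR-125a-3p, miR-134-5p and miR-211-3p.

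The set was also rich in G. Of its members 40 have a sequence in the RefSeq table, and the median share of G and C in the mature sequence was 65.1%, compared with 54.5% over the 680 analysed miRNAs with a sequence. The run GGGG, searched on the miRNA strand as printed, was found in 22 of the 40 (55%), in 120 of the 680 (17.6%) and in 36 of the 244 (14.8%) detected on all late arrays but outside the set. In the part 3′ of the middle of the miRNA it was found in 14 of the 40 (35%) and in 54 of the 680 (7.94%). Anywhere in the strand, GGGG can be read in miR-721, miR-760-3p, miR-3099-3p, miR-3547-5p and miR-8093 above, and in miR-8093 it lies in the seed. The run CCCC was no more frequent, with 2 of 40 (5%) against 62 of 680 (9.12%). These are descriptions of the printed letters, and a match says nothing on why a signal moved.

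**Figure D3:**
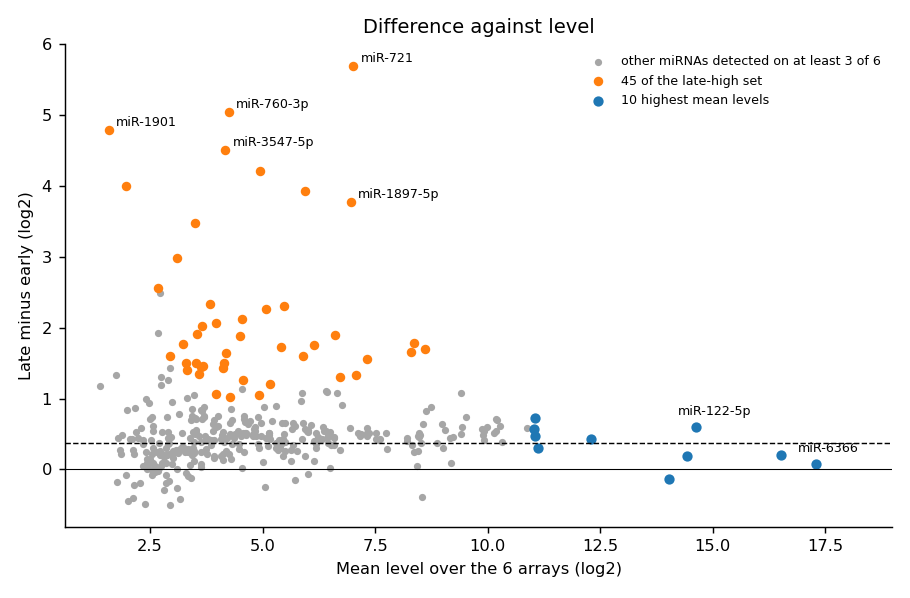
Late minus early difference (log2) against the mean level over the 6 arrays (log2) for each miRNA detected on at least 3 of them. Orange marks the 45 miRNAs of the late-high set, blue the 10 with the highest mean level, and the dashed line the median of all 815, 0.38; the blue points lie between -0.14 and 0.72.

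The arms of 1 hairpin could differ. MiR-125a-3p measured 1.89, 1.72 and 4.42 in the early and 4.81, 4.84 and 5.36 in the late pieces, a difference of 2.33. Its guide strand miR-125a-5p measured 4.55, 5.97 and 6.00 early and 6.03, 5.77 and 5.77 late, a difference of 0.35 with overlapping windows. MiR-1897-3p, detected on 5 arrays, differed by 0.15, against 3.78 for miR-1897-5p. The other arms of miR-760-3p, miR-3547-5p, miR-3099-3p, miR-7031-5p, miR-7216-5p, miR-7222-3p and miR-134-5p were detected on none of the 6 arrays.

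In the miR-3473 family, 3 of 6 analysed members were separated and over 2-fold higher (50%, against 12.3% of all 815) and 0 passed the adjusted p. The median difference of its members was 1.61, 1.47 without the 0 h and 1.02 without the 48 h array. MiR-3473b measured 7.33, 6.65 and 8.42 in the early and 8.53, 8.90 and 10.32 in the late pieces (difference 1.78, adjusted p = 0.31). MiR-3473a measured 4.49, 3.41 and 5.74 early and 5.78, 6.15 and 6.89 late (difference 1.73, adjusted p = 0.323). In both, 1 h was the lowest and 48 h the highest of the 6 pieces. MiR-3473f was the last of the 3 that were separated and over 2-fold higher, while miR-3473e had the largest difference, 1.93, with 3.117 at 3 h just above 3.114 at 12 h. MiR-3473g overlapped as well, with 0.82, while miR-3473c was separated but under the 2-fold limit, with 0.69. Parts of miR-3473a and miR-3473b are alike, as their sequences above show, so that their probes may share signal, which was not tested.

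The well-known liver miRNAs did not separate. In the liver-enriched list 8 of 11 strands were analysed, 0 passed the adjusted p in either direction and 0 were separated over 2-fold. MiR-122-5p, the main miRNA of hepatocytes, measured 12.67, 15.36 and 14.94 in the early and 14.95, 14.46 and 15.34 in the late pieces. Its 0 h value lay under all others, and the late values lay between those of 0 h and 1 h. The difference was 0.59 ± 0.74 (adjusted p = 0.879), and -0.23 without the 0 h array. MiR-192-5p measured 9.20, 11.99 and 11.28 early and 11.27, 10.71 and 11.91 late, and its difference turned from 0.47 to -0.34 without the 0 h array. MiR-148a-3p and miR-194-5p gave 0.52 and 0.48 with, and -0.37 and -0.11 without it. The list's median was 0.48, against 0.38 for all 815, and -0.23 without the 0 h array.

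The 10 miRNAs of the highest mean level were miR-6366, miR-3963, miR-122-5p, miR-5100, miR-3968, miR-21a-5p, miR-22-3p, miR-192-5p, miR-29a-3p and let-7f-5p. Their differences ran from -0.14 (miR-3968) to 0.72 (miR-29a-3p), the windows overlapped in each, and the smallest adjusted p was 0.846. MiR-6366 measured 16.44, 17.68 and 17.69 early and 17.50, 17.01 and 17.51 late. MiR-21a-5p, a miRNA of injury and growth, measured 10.27, 13.50 and 12.46 early and 12.41, 11.78 and 13.32 late. The 0 h value was the lowest of the 6 in each of the 10 and, among the late arrays, 24 h was the lowest.

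The guide families showed one pattern. In let-7, which restrains growth genes in differentiated cells, 0 of 9 members passed or separated, with differences from 0.52 to 0.73. Let-7f-5p measured 9.06, 11.92 and 11.28 early and 11.35, 10.81 and 11.81 late. The list medians were 0.57 for let-7, 0.41 for 5 miR-30 guides, 0.71 for the 3 members of miR-29, which targets collagen mRNAs, 0.47 for 5 members of the miR-23, miR-27 and miR-24 clusters, 0.48 for 9 members of the oncogenic miR-17 and miR-106b clusters, 0.51 for 5 of the miR-15 and miR-16 family, 0.57 for both miR-26 and 0.58 for 5 of miR-99, miR-100 and miR-125. In each of these lists 0 members passed the adjusted p and 0 were separated over 2-fold. Without the 0 h array the medians lay between -0.26 and 0.01. MiR-29a-3p had 9.40, 11.32 and 11.33 early and 11.33, 10.84 and 12.05 late, and its difference of 0.72 became 0.08 without the 0 h array.

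Passenger strands of let-7 gave a median of -0.41 over 7 analysed members, of which 3 were detected on at least 3 arrays and 0 passed or separated over 2-fold. Under the 2-fold limit, let-7c-1-3p (-0.23) and let-7i-3p (-0.97) were lower in every late piece, and neither was detected on any array. Of all 815, 16 (1.96%) were separated lower at any fold. Let-7b-3p measured 3.49, 3.38 and 3.26 early and 2.31, 3.39 and 3.18 late. Its lowest value was that of 12 h, and the windows overlapped. The median without the 0 h array was -0.25.

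Markers of the other cells of liver did not separate either. Blood cell miRNAs had a median of 0.38 over 9 members, and -0.27 without the 0 h array. MiR-451a, the red cell miRNA that is made without DICER, measured 8.51, 10.88 and 10.20 early and 10.52, 10.25 and 10.93 late. MiR-142a-3p of white blood cells measured 6.61, 9.88 and 8.71 early and 8.21, 7.50 and 9.65 late, with a difference of 0.05, and -0.85 without the 0 h array. The 8 strands of vessel and stromal cells had a median of 0.59, with miR-126a-3p of endothelium at 8.10, 10.71 and 10.28 early and 10.38, 9.82 and 10.68 late. MiR-145a-5p of smooth muscle was apart in its course, at 2.50, 2.54 and 4.10 early and 4.31, 4.50 and 2.57 late, and its windows overlapped. In the list of hypoxia, p53 and injury, miR-210-3p, which hypoxia induces, gave 0.71, and 0.11 without the 0 h array, while miR-34a-5p, a p53 target, gave 0.44 and -0.36. In these 3 lists 0 members passed the adjusted p and 0 separated over 2-fold. Mirtrons are miRNAs spliced out of short introns. In a list limited to conserved mirtrons these counts were 0 of 7 as well, with a median of 0.30 and the largest difference in miR-877-5p (1.31). MiR-3102-5p.2-5p, which is not on this list, belonged to the late-high set (1.45), and mirtrons registered later were not listed.

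**Figure D4:**
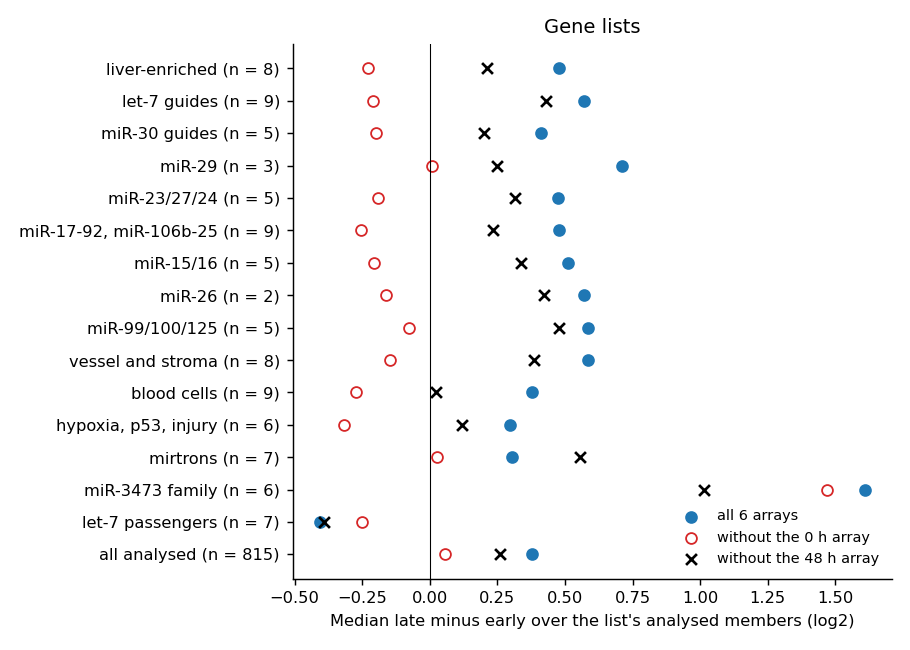
Median late minus early difference (log2) over the analysed members of each list, whose number is given beside the name. The mirtron list holds conserved mirtrons only. Filled points use all 6 arrays, open points leave out the 0 h array and crosses the 48 h array; the miR-3473 family lies at 1.61, 1.47 and 1.02, and the guide lists move from between 0.41 and 0.71 to between -0.26 and 0.01 without the 0 h array.

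In a separate liver experiment on other arrays, the study had sorted miRNAs into 8 clusters. The paper describes clusters 1 and 2 as low in fresh liver and raised in liver stored at RT. It describes clusters 3 and 7 as lower in the stored liver than in the fresh one. Of the analysed members of its cluster 1, 46 of 176 (26.1%) were separated and over 2-fold higher late in the cold, and of cluster 2, 47 of 192 (24.5%), against 12.3% of all 815. In cluster 7 the count was 1 of 98 (1.02%), and it was 0 in each of the others, 0 of 65 in cluster 3, 0 of 25 in cluster 4, 0 of 15 in cluster 5, 0 of 49 in cluster 6 and 0 of 7 in cluster 8. The median differences of clusters 1, 2, 3 and 7 were 0.74, 0.74, 0.43 and 0.45, and without the 0 h array 0.79, 0.63, -0.16 and -0.22.

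The late-high set was then read on other slides at the same hours. Their log2 levels had no part in choosing it, but their detection flags entered the filter over 45 arrays that gave the 815. On the liver slide at RT, 36 of the 45 (80%) were higher on all late arrays than on any early array, where 41.3% of all 815 were, and their median difference was 3.03, against 0.52 for all 815. The same 36 were over 2-fold higher there (background 39.6%). In brain at 4 °C the count was 35 (77.8%; background 18%) with a median of 0.80, against -0.03, and 19 (42.2%) were also over 2-fold higher (background 8.22%). In heart at 4 °C, without the 0 h array that the study removed, it was 28 (62.2%; background 27.5%) with a median of 0.48, against 0.09, and 12 (26.7%) were also over 2-fold higher (background 5.28%). There 1 of the 45 was separated the other way. Each slide is of its own tissue or temperature. In liver at RT, RIN was lower in every late piece than in any early one, while in cold brain and heart the RIN values of the windows overlapped. The slide rows of these arrays were not compared. Per the methods, the tissues on arrays were of the same individual, so that the cold brain and heart slides may share the animal of the cold liver. MiR-1897-5p had late minus early differences of 3.78 in cold liver, 2.25 in liver at RT, 2.73 in cold brain and 3.03 in cold heart, and its windows did not overlap on any of these slides. For miR-721 these were 5.69, 3.40, 2.44 and 2.50, again without overlap. MiR-8093 differed by 4.00, 4.68 and 2.46 in cold liver, liver at RT and cold brain, but by -0.23 in cold heart. For the 10 largest increases the late minus early difference in cold liver was not shown to differ from that of any other slide by the interaction test, with adjusted p from 0.285 to 0.838 against liver at RT, from 0.584 to 0.908 against brain and from 0.318 to 0.988 against heart.

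**Figure D5:**
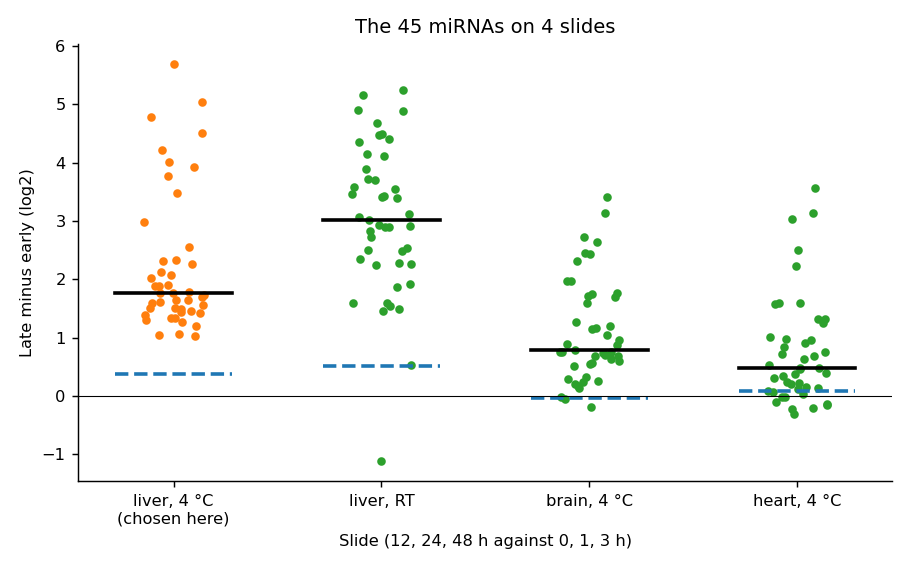
Late minus early difference (log2; 12, 24 and 48 h against 0, 1 and 3 h, without the removed 0 h array in heart) of each of the 45 miRNAs on 4 slides. Each point is a miRNA, the black bar the median of the 45 and the dashed bar the median of all 815; the medians of the 45 are 1.76 in cold liver, where they were chosen, and 3.03, 0.80 and 0.48 on the other slides.

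Cold liver and liver at RT were also compared directly by the interaction of window and temperature over 12 arrays, where animal, slide and temperature cannot be told apart. The difference between late and early differed for 69 of 815 miRNAs (8.47%), of which 67 had the smaller value in cold liver. This count rested on single arrays, with 12 without the cold 12 h or 24 h array and 359 without the 12 h array at RT. Of the 69, 38 were detected on none of the 6 cold liver arrays, 25 were detected on at least 3, and 3 belonged to the late-high set. MiR-3077-5p differed by 1.43 in the cold and by 6.38 at RT (interaction -4.95 ± 1.18, adjusted p = 0.0306). MiR-877-5p, a mirtron, differed by 1.31 and 5.99, miR-3082-5p by 0.76 and 5.42, miR-7040-5p by 0.87 and 5.31, and miR-7648-3p by 0.74 and 5.12 (adjusted p from 0.0251 to 0.0400). Of the 25 detected on at least 3, 24 had the smaller value in cold liver. The exception, miR-455-3p, named after its values were seen, differed by 0.28 in the cold and by -2.89 at RT (interaction 3.17 ± 0.84, adjusted p = 0.0390). Against brain at 4 °C 1 miRNA (0.123%) differed, the mostly undetected miR-703, and against heart at 4 °C 0 (0%), with 33 and 52 at an unadjusted p under 0.05.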

How the data were processed

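Total RNA of each piece was measured on a 1-colour Agilent mouse miRNA array (release 21.0), with 1881 miRNAs on 30 spots each. The authors deposited scanner intensity files made by Agilent Feature Extraction (10.10.1.1 per the file headers), with a total gene signal intensity and a detection flag for each miRNA, and a table of log2 values. Per the methods, the authors made these log2 values from background-corrected signals by variance stabilizing normalization in R. The deposited flag is 1 for a detected miRNA and otherwise 0. An undetected miRNA has a total gene signal of 0.1 but still a low log2 value. This normalization makes arrays comparable, and a dim array can stay lower. No miRNA spot was saturated, and precision is limited by how few arrays there are.

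As in the methods, miRNAs detected on at least 5 of 45 arrays were analysed (815). Differences of mean log2 levels were tested with limma 3.58.1 (lmFit, eBayes; R 4.3.3) on the 6 arrays and adjusted over all 815 by Benjamini-Hochberg, with a threshold of 0.05. Windows were called separated when all 3 late values lay on one side of all 3 early values, and 2-fold is a difference of 1 on the log2 scale. Interactions used 12 arrays (11 with heart). Folds against undetected windows were computed against the mean of, for each array, the higher of the lowest log2 value of a detected miRNA and the miRNA's own value. Groups came from the labels. Named miRNAs were those past the adjusted p, the 10 largest separated increases and decreases detected on every array of the higher window (no decrease qualified), the 10 highest mean levels, gains or losses of detection, up to 4 of the highest and the most changed member of each list, and the 5 largest interactions. Other named members of the late-high set, miR-455-3p and same-seed or opposite-arm miRNAs were chosen after their values were seen. The members and lists were chosen with earlier results of these data known, and the cluster lists came from the study's supplement. The scripts were tested on simulated data. RefSeq (GRCm38.p6) matched 1608 of 1881 names. Alternatives were each array left out, other normalizations, background correction, detection filters, spread estimates and covariates. Columns of other samples numbered 0.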

Additional observations from a re-analysis of the deposited data

Results flagged for a closer look

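Late minus early differences that differed between cold liver and liver at RT numbered 69, and between cold liver and cold brain 1 (limma interaction, adjusted over 815). The values for cold liver minus liver at RT were -4.95 in miR-3077-5p, -4.68 in miR-877-5p, -4.66 in miR-3082-5p, -4.44 in miR-7040-5p and -4.39 in miR-7648-3p. All 5 were higher late on both slides and more so at RT. The 1 miRNA against cold brain was miR-703, with 5.98 in liver and -0.51 in brain, detected on 1 of the 6 liver arrays and on none in brain. Groups of 3 arrays were not searched for single stray arrays.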

How the results depend on the processing

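The limits are those of 6 pieces of 1 liver. At 0 h, miRNAs detected on all 6 arrays were mostly low, and 1 array had a low RIN. Slide row was joined to window, and values under the detection limit entered the fit. No paired analysis was possible because each label carries replicate 1 and each storage time has 1 array. The 75th percentile over all miRNAs was at the scanner's floor of 0.1 on every array, so this scaling gave no value of its own. Spot medians and local background medians stood in for spot means in the normexp correction. The analysis without both the 0 h and the 48 h array was chosen after seeing the data. The cause of the changes below was not tested.

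Of the 2 miRNAs past the adjusted p, leaving out single arrays gave 0 to 14 (14 without 3 h, 0 without 1, 12 or 24 h). The count was 15 without scaling (453 tested) and 48 with log2(hours + 1) as the predictor. It was 9 with detection on at least 3 arrays (374 tested) and 1 with detection on all 6 (216 tested). It was 1 with an intensity trend or with RIN as covariate, and 0 with normexp, with detection on at least 10 of 45 arrays, with undetected values raised to the detection limit, with all 14 liver arrays, without 0 and 48 h, and by the exact Wilcoxon-Mann-Whitney test. Unadjusted p under 0.05 was reached by 53 to 120 miRNAs on leaving out single arrays. It was reached by 36 of 453 without scaling and by 30 of 452 with scaling to the 75th percentile of those detected on all 6 arrays. With detection on at least 3 or all 6 it was reached by 42 of 374 and 17 of 216, and with no filter by 189 of 1881. Further counts were 61 with raised values, 55 with RIN and 153 with log2(hours + 1). They were 54 without 0 and 48 h and 0 by the exact Wilcoxon-Mann-Whitney test.

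The 100 separated miRNAs over 2-fold higher became 105 to 158 on leaving out single arrays (158 without 3 h). They became 26 of 453 without scaling, 29 of 452 with 75th percentile scaling and 5 with normexp. With detection on at least 3 or all 6 arrays they were 45 of 374 and 23 of 216, and with raised values 52. The 4 lower became 9 to 21 on leaving out single arrays, 0 without scaling, with 75th percentile scaling, with normexp, with either detection filter on the 6 arrays and with raised values, 81 with no filter, 9 and 2 with detection on at least 3 or 10 of 45 arrays, and 27 without 0 and 48 h.

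The 69 interactions with liver at RT became 12 to 359 on leaving out single arrays (12 without the cold 12 or 24 h array, 359 without the 12 h array at RT). They became 25 with detection on at least 3 of 6 (374 tested), 169 with 75th percentile scaling and 195 without scaling. The 1 against brain became 0 to 6, and 0, 6 and 2 under these settings. The 0 against heart became 0 to 9 (9 without the cold 3 h array of liver), 14 with 75th percentile scaling and 9 without scaling.

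The direction of the uncalled differences of bright miRNAs depended on the setting, and with undetected values raised miR-7035-5p had -0.0227. Without scaling miR-6366 had -0.13 and miR-5100 -0.0046. With 75th percentile scaling the differences were -0.55 for miR-6366, -0.42 for miR-3963, -0.02997 for miR-122-5p, -0.43 for miR-5100, -0.198 for miR-21a-5p, -0.32 for miR-22-3p, -0.15 for miR-192-5p and -0.0531 for let-7f-5p. With quantile normalization they were -0.15 for miR-22-3p and -0.0733 for miR-192-5p, and with normexp -0.0569 for miR-6366, -0.12 for miR-5100, -0.17 for miR-22-3p and -0.068 for miR-192-5p. With RIN they were -0.11 for miR-6366, -0.43 for miR-5100, -0.35 for miR-21a-5p, -0.24 for miR-22-3p and -0.13 for miR-192-5p, and with log2(hours + 1) the slope of miR-3968 was 0.023. Without 0 and 48 h they were -0.43 for miR-6366, -0.32 for miR-3963, -0.44 for miR-122-5p, -0.84 for miR-5100, -0.89 for miR-21a-5p, -0.63 for miR-22-3p, -0.64 for miR-192-5p, -0.25 for miR-29a-3p and -0.52 for let-7f-5p. Leaving out single arrays gave -0.35 to 0.28 for miR-6366, -0.25 to 0.503 for miR-3963, -0.23 to 1.11 for miR-122-5p, -0.48 to 0.66 for miR-5100, -0.54 to 0.15 for miR-3968, -0.48 to 1.14 for miR-21a-5p, -0.35 to 0.81 for miR-22-3p, -0.34 to 1.05 for miR-192-5p and -0.28 to 1.15 for let-7f-5p. In each of these 9 the lowest value came without 0 h. The 10 largest increases stayed higher in the late window in each alternative that tested them, with differences of 0.34 to 3.38 under normexp. They were chosen as separated on these arrays, so that leaving out arrays or miRNAs cannot turn their direction. Without scaling 10 of 10 passed the adjusted p, where 453 miRNAs were tested and lower signals were raised to 1 unit. With log2(hours + 1) 10 of 10 passed, and without 3 h 7 did. These counts partly restate how the 10 were chosen.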
